A study of Mus musculus with 20 samples.

Results

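The mitosis and spindle genes examined here are 40 mouse genes whose proteins drive, build or police cell division, and they were followed across all 6 groups of an overexpression experiment with p65/RelA. Membership was set by a list of gene symbols, and a gene was found on the array through the accession printed for its probes. All 40 genes were found, on 57 oligonucleotide probes, and all 40 were among the 18914 genes that passed the filter on dim signals. Plasmids were transfected into B16 Bcr-Abl+ cells of the mouse. B16 is a melanoma line, Bcr-Abl is a leukaemia-derived kinase fusion that every group carries, and the labels give the strain as C3H eOuJ. The 6 groups of arrays were compared: a void plasmid (titled "Blanck" and read as the void control, 3 arrays), full-length wild-type p65/RelA (WT, 3 arrays), the non-cleavable D361E form (3 arrays), a fragment of residues 362 to 549 (C-fragment, 3 arrays), a fragment of residues 1 to 361 (N-fragment, 3 arrays) and both fragments together (N+C, 5 arrays). The design text sets the full-length gene beside the non-cleavable mutant and the fragments that cleavage yields. The labels do not say how the replicates were made or how much of each protein the cells produced, so every p-value here covers no more than the spread between the arrays of a group.

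As background, entry into mitosis depends on cyclins bound to Cdk1 and on the Aurora and Polo kinases. Chromosomes then attach through kinetochores to a spindle that motor proteins shape, and a checkpoint holds back the anaphase-promoting complex, a ubiquitin ligase also written APC/C, until attachment is complete. Transcription of many such genes peaks late in the cell cycle and runs through promoters with CCAAT boxes, bound by NF-Y, and a cell cycle genes homology region (CHR), bound by MuvB complexes, while p65 is the transactivating subunit of NF-kB.

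The promoters of the members share letters that the choice of genes did not use. Windows from 250 bases before to 50 bases after the start were found for 33 of the 40 genes in a RefSeq promoter table on GRCm38, giving 35 windows. The core letters of the CHR, TTTGAA on either strand, lay in the windows of 25 of these 33 genes (75.8%), against 20.2% of the 27025 genes in the table. The letters CCAAT, on either strand, were present for 27 of 33 (81.8%), against 41.1%. Both were present for 23 (69.7%), against 7.97%, and at least 2 CCAAT boxes for 19 (57.6%), against 13.3%. A match is a description of letters, not a site shown to be used. The 130 bases before the start are printed for 5 genes around which the results turn: a pair of cyclins that differed between the constructs (Ccnb1, Ccnb2), a gene that rose with the N-fragment and was not called with N+C (Top2a), one that rose with both (Ube2c) and one that rose with all 5 constructs (Kif11). Each is written 5′ to 3′ on the strand of its gene. Capitals mark the letters CCAAT or TTTGAA, or, where they lie on the opposite strand, their reverse complements ATTGG and TTCAAA.
Ccnb1, GRCm38 chr13:100786487-100786616, minus strand: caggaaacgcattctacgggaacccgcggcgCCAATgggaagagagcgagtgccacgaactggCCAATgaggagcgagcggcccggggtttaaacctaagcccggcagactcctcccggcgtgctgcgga
Ccnb2, GRCm38 chr9:70421555-70421684, minus strand: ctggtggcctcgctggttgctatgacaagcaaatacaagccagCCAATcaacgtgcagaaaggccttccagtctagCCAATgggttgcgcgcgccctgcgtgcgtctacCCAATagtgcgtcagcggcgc
Top2a, GRCm38 chr11:99024190-99024319, minus strand: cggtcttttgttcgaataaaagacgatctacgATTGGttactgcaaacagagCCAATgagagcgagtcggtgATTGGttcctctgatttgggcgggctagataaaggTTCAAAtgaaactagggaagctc
Ube2c, GRCm38 chr2:164769799-164769928, plus strand: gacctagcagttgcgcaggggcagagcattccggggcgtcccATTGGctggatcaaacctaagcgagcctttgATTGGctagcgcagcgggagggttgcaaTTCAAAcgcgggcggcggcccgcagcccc
Kif11, GRCm38 chr19:37376252-37376381, plus strand: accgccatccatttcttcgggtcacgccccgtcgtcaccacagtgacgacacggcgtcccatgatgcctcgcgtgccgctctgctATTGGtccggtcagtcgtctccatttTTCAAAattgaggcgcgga
Ccnb1 carried 2 CCAAT boxes and Ccnb2 carried 3 in these stretches, and neither held the CHR letters there. In the whole window Ccnb2 held them at -167 and 5 relative to the start, and Ccnb1 nowhere. Top2a, Ube2c and Kif11 each held the CHR letters within the 40 bases before the start.

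Each array measured Cy3-labelled total RNA, and 51.1 to 57.87% of its 43020 spots that were not controls were well above background. A level is the log2 processed signal minus that array's 75th percentile, so a level near 4 is a bright probe and one below 0 is dimmer than the 75th percentile. Levels of different probes are not compared with each other. All 8 melanocyte markers were above background on all 20 arrays. Of the haematopoietic markers, Ptprc, the pan-leukocyte CD45 gene, Spi1 and Cd79a were above background on no array, Cd79b was on 1, and Cd3e, Itgam and Csf1r were on all 20. A pair of array features touches the results below. N+C arrays 4 and 5 stood apart from N+C arrays 1 to 3, so results on N+C are also given for each set. Signals of the brightest Cdk1 probe and of Aurkb followed the slide an array lay on, so slide is treated below.

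Cells given either the N-fragment or N+C had the highest levels of the mitosis and spindle genes, and the other constructs lay between them and the void plasmid. The mean was taken over 38 genes, leaving out Cdk1 and Aurkb, whose signals followed the slide, and relative to the mean of the void arrays. It was -0.067 to 0.064 log2 units on the 3 void arrays. It was 0.066 to 0.198 on the WT arrays, 0.090 to 0.235 on the D361E arrays and 0.119 to 0.140 on the C-fragment arrays, ranges that overlap each other. It was 0.396 to 0.449 on the N-fragment arrays and 0.298 to 0.502 on the N+C arrays. No array given WT, D361E or the C-fragment reached the range of these last groups, whose own ranges overlapped. With Cdk1 and Aurkb included, the group mean of the C-fragment arrays was 0.197 in place of 0.126, that of WT 0.175 in place of 0.126 and that of D361E 0.163 in place of 0.172. Over all 40 genes, on each N-fragment array 35 to 37 of the genes lay above the highest void array, and on each N+C array 31 to 38. It was 18 to 28 on each WT array, 19 to 30 on each D361E array and 25 to 26 on each C-fragment array. The share of all genes tested that did so was not counted. Because RNA was taken from whole cultures, more cells in mitosis and more of these RNAs per cell cannot be told apart.

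**Figure D1:**
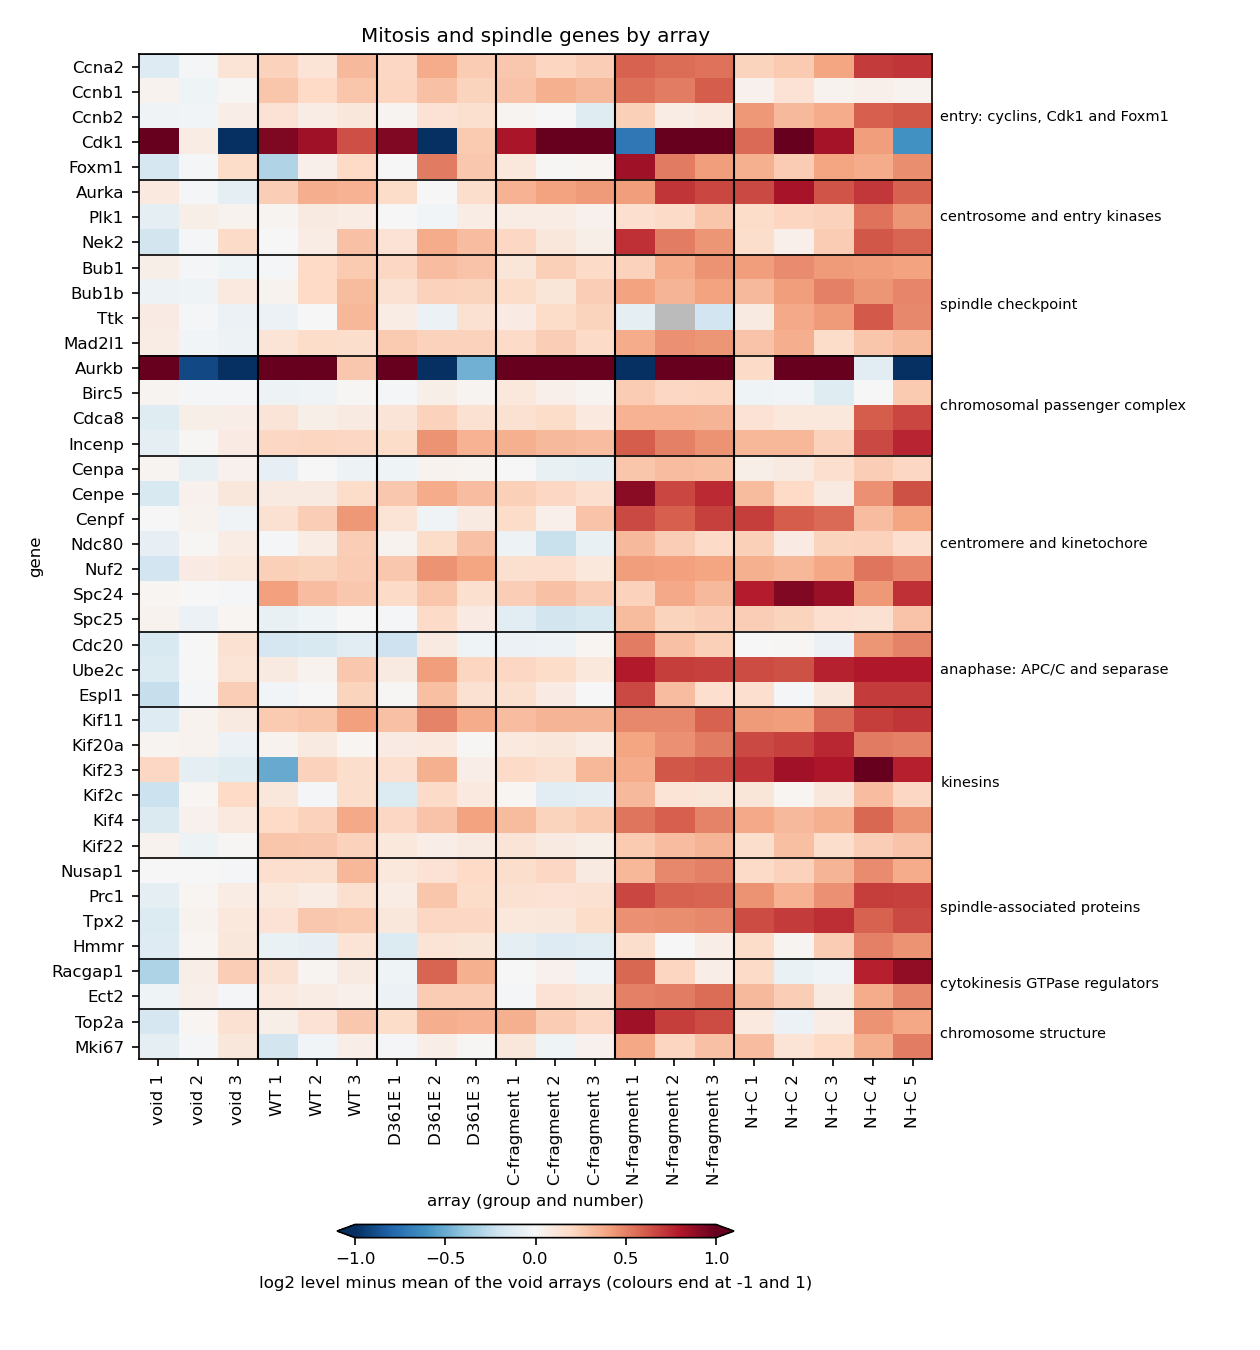
Level of each of the 40 genes on each of the 20 arrays, as the log2 level minus the mean of the 3 void arrays (colour scale from -1 to 1), with genes in rows grouped by role and arrays in columns grouped by construct. Most rows are darkest red in the N-fragment and N+C columns, and the rows of Cdk1 and Aurkb vary within every group; grey marks the spot of Ttk left out on N-fragment array 2.

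A gene was called when limma's adjusted p was under 0.05 over all 18914 genes. Against void, 29 of 40 members rose with the N-fragment and 0 fell, where 13.1% of all genes tested rose and 17.8% fell. With N+C 26 rose and 0 fell, where 11.7% of all genes rose and 12.7% fell. With WT 7 rose and 0 fell, where 3.23% of all genes rose and 6.12% fell. With D361E 6 rose and 0 fell, where 6.01% of all genes rose and 7.43% fell. With the C-fragment 5 rose and 0 fell, where 4.86% of all genes rose and 8.23% fell. The median difference over the members was 0.43 for the N-fragment (-0.06 over all genes) and 0.35 for N+C (-0.03). For D361E it was 0.17 (-0.04), for the C-fragment 0.15 (-0.02) and for WT 0.12 (-0.03). All 5 comparisons share the void arrays. No called difference reached 2-fold. Of the 40 genes 2 were called with all 5 constructs, Kif11 and Kif4, and 8 were called with none.

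**Figure D2:**
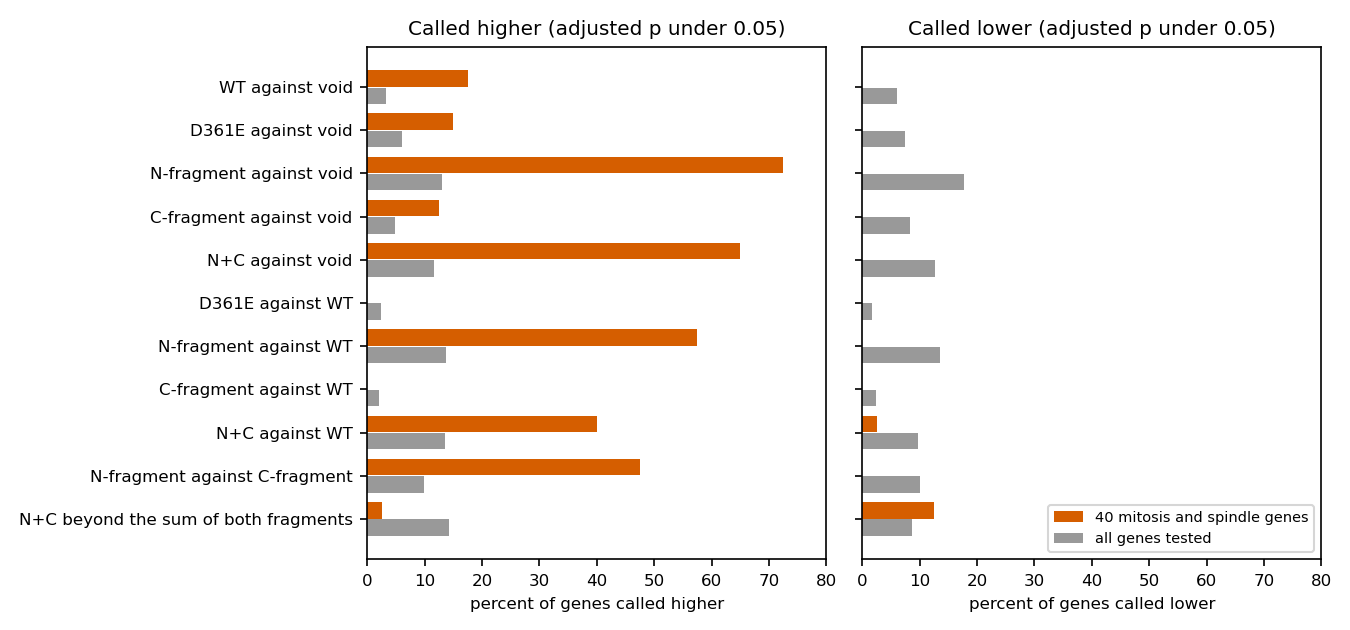
Share of the 40 mitosis and spindle genes called higher and lower in each of the 11 comparisons, as bars in percent, beside the same share over all 18914 genes tested. The bars for the N-fragment against void (72.5% of members, all higher) and N+C against void (65% of members, all higher) stand highest.

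With the N-fragment the kinetochore genes rose as a whole group. All 7 were called, among them the motor Cenpe, the large outer protein Cenpf, the centromeric histone Cenpa and the Ndc80 complex members Ndc80, Nuf2, Spc24 and Spc25, with differences from 0.25 to 0.77. Cenpe, which carries chromosomes towards the spindle equator, was at 3.50, 3.69 and 3.76 on the void arrays and at 4.55, 4.32 and 4.39 with the N-fragment. Every N-fragment array was above every other array in the series for this gene. Its difference of 0.77 ± 0.11 (log2 ± standard error, adjusted p = 7.44e-05) was the largest called for a member with this construct. Cenpf was at -3.47, -3.44 and -3.51 with void and at -2.81, -2.88 and -2.79 with the N-fragment, groups far apart beside their own spread. It rose by 0.65 ± 0.10 (adjusted p = 9.89e-05). Ndc80 (0.25 ± 0.08, adjusted p = 0.0276) and Spc24 (0.31 ± 0.09, adjusted p = 0.0194) were the nearest of the 7 to the threshold.

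Among the genes of mitotic entry, Ccnb1, Ccna2 and Foxm1 rose with the N-fragment. Ccnb1, the cyclin that activates Cdk1 at entry, was at 4.27, 4.19 and 4.25 with void and at 4.79, 4.75 and 4.84 with the N-fragment. The groups were more than 0.4 units apart, and the difference was 0.56 ± 0.05 (adjusted p = 3.34e-07). Its 3 probes gave differences from 0.56 to 0.64. Ccna2, the cyclin of S phase and early mitosis, went from 3.43, 3.54 and 3.69 to 4.15, 4.11 and 4.09. It rose by 0.56 ± 0.12 (adjusted p = 0.00164). Foxm1, a transcription factor for late cell cycle genes, went from 3.01, 3.16 and 3.36 to 4.02, 3.69 and 3.59, with no overlap (0.59 ± 0.14, adjusted p = 0.00501). Ccnb2, the second B-type cyclin here, was not called (0.14 ± 0.08, adjusted p = 0.219).

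Of the kinases at centrosomes and at entry, Aurka and Nek2 rose and Plk1 did not pass the test. Aurka, the Aurora kinase of centrosomes and spindle poles, was at 3.90, 3.79 and 3.70 with void and at 4.22, 4.51 and 4.46 with the N-fragment (0.60 ± 0.08, adjusted p = 5.06e-05). Nek2, a kinase of centrosome separation, differed by 0.56 ± 0.14 (adjusted p = 0.00732). Plk1, the Polo-like kinase, had a difference of 0.21 ± 0.08 (adjusted p = 0.0649), with every N-fragment array above every void array.

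Of the 4 spindle checkpoint genes, Mad2l1, Bub1b and Bub1 rose with the N-fragment, by 0.43, 0.38 and 0.35. Mad2l1 encodes the inhibitor of APC/C activation, and its 3 probes gave differences from 0.19 to 0.43. Ttk, the kinase that starts checkpoint signalling, was at -2.91, -3.01 and -3.05 with void and at -3.08 and -3.18 with the N-fragment, where the spot of array 2 was dropped from the fit as an outlier. It was the one member with a negative difference in this comparison (-0.14 ± 0.14, adjusted p = 0.497), which was not called.

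The anaphase group held one strong change. Ube2c, the ubiquitin-conjugating enzyme of the APC/C, was at 3.56, 3.70 and 3.84 with void and at 4.49, 4.39 and 4.39 with the N-fragment. The lowest N-fragment array was above all void, WT, D361E and C-fragment arrays, and the difference was 0.72 ± 0.09 (adjusted p = 1.66e-05). Cdc20, the APC/C activator, was not called (0.35 ± 0.14, adjusted p = 0.0733), nor was Espl1, the separase that cuts cohesin (0.38 ± 0.19, adjusted p = 0.152).

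Of the kinesins 5 of 6 rose with the N-fragment, and so did 3 of 4 spindle-associated proteins. Kif4, the chromokinesin of the midzone, rose by 0.54 ± 0.08 (adjusted p = 7.91e-05). Kif11, which pushes spindle poles apart, went from -0.14, 0.02 and 0.07 with void to 0.46, 0.46 and 0.57 (0.52 ± 0.09, adjusted p = 0.000279). Kif23, Kif20a and Kif22 rose by 0.54, 0.46 and 0.30, while Kif2c, a depolymerizing kinesin, was at 0.19 ± 0.11 (adjusted p = 0.204). Prc1, which bundles midzone microtubules, went from 4.40, 4.52 and 4.57 to 5.16, 5.09 and 5.08 (0.61 ± 0.09, adjusted p = 4.66e-05). Tpx2, the activator of Aurora A, rose by 0.47 and Nusap1 by 0.44, and Hmmr was not called (0.08 ± 0.12, adjusted p = 0.68).

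Among the remaining roles, both chromosome structure genes rose with the N-fragment. Top2a, the topoisomerase that untangles sister DNA, was at 2.35, 2.54 and 2.67 with void and at 3.37, 3.22 and 3.17 with the N-fragment, a gap wider than the range of either group. It rose by 0.73 ± 0.12 (adjusted p = 0.000251), and Mki67, the Ki-67 antigen that coats mitotic chromosomes, by 0.30 ± 0.09 (adjusted p = 0.0207). Of the chromosomal passenger complex, the Aurora B assembly, Incenp rose by 0.52 ± 0.12 (adjusted p = 0.00269) and Birc5, which encodes survivin, by 0.22 ± 0.07 (adjusted p = 0.0301), while Cdca8 was not called (0.34 ± 0.13, adjusted p = 0.055). Ect2, the exchange factor that activates RhoA for cytokinesis, rose by 0.53 ± 0.09 (adjusted p = 0.000421), and its partner Racgap1 was not called (0.29 ± 0.24, adjusted p = 0.425).

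**Figure D3:**
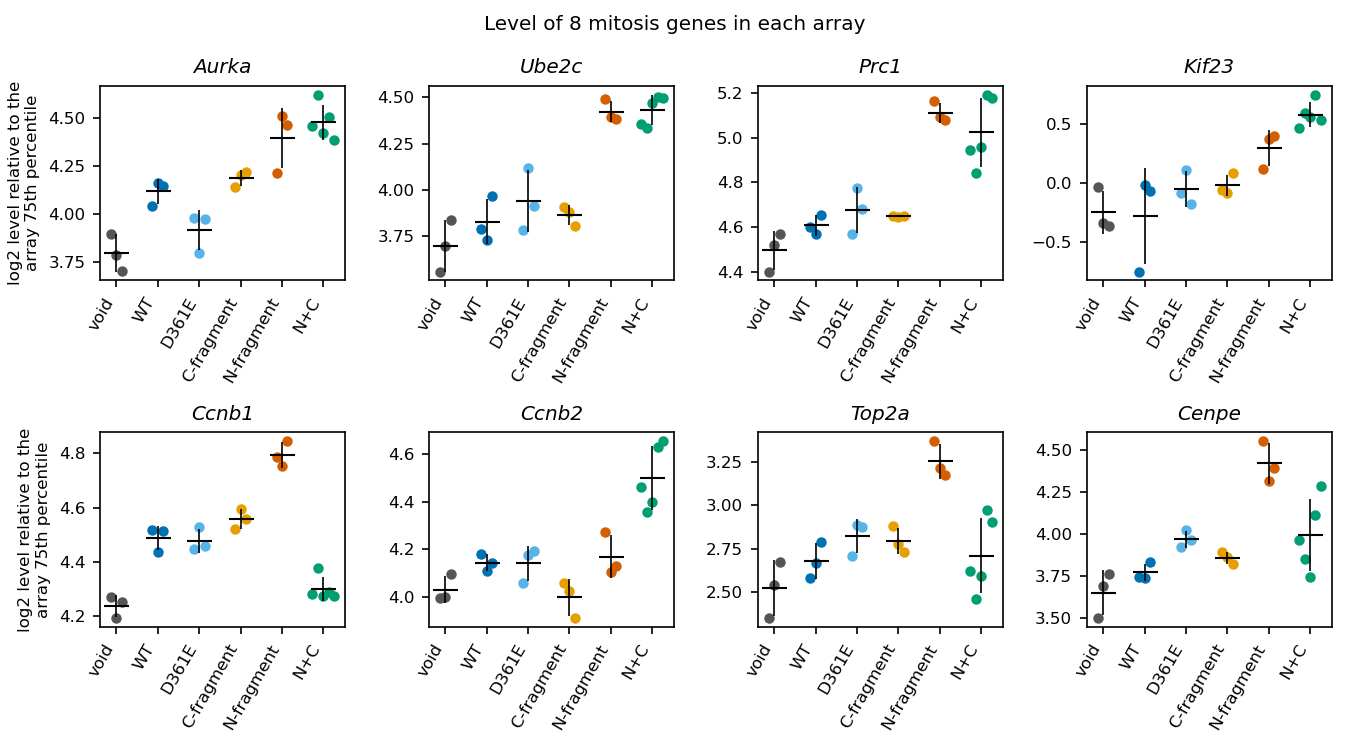
Levels (log2, relative to the array's 75th percentile) of Aurka, Ube2c, Prc1, Kif23, Ccnb1, Ccnb2, Top2a and Cenpe in the 6 groups, one point per array, with a horizontal mark at the group mean and a vertical bar of 1 SD either way. Ccnb1 is highest with the N-fragment (4.75 to 4.84) and lies near the void level with N+C (4.27 to 4.38), whereas Ube2c is high in both.

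Against void, groups did not overlap for 34 of 40 members with the N-fragment (33 higher, and Ttk lower), where this held for 43.2% of all genes. Of the 29 calls 24 held in every alternative and with every array left out, and Mki67, Birc5, Kif23, Ndc80 and Spc24 did not. Mki67 lost its call without void array 1 or 2 or N-fragment array 1 or 3 (highest adjusted p = 0.0805). Birc5 lost it without void array 2 or 3 or any N-fragment array (0.0823), and Kif23 without array 2 or 3 of either group (0.0591). Ndc80 lost it without array 1 or 2 of either group (0.103), and Spc24 without void array 3 or N-fragment array 2 or 3 (0.0756). Of 15 refits, the calls of Mki67 and Ndc80 held in 9, that of Birc5 in 8, and those of Kif23 and Spc24 in 11. For Mki67, Birc5, Ndc80 and Spc24 some alternatives other than leaving out an array also lost the call. Of the 4 measured genes of a 6-gene fibroblast list, 2 were called higher with this construct and 0 lower. Thy1, among the 4, was above background on 3 arrays. The linear sum of the 4, relative to the 75th percentile, was 2.82 to 3.47 on N-fragment arrays and 1.27 to 1.62 on void arrays. It was 0.18 to 0.67 on the N+C arrays, where the mitosis and spindle genes were also high, and Dcn and Lum were above background on no array. Its part in the result was not tested. Rela itself, the gene of the transfected protein, rose with the N-fragment (0.36 ± 0.07, adjusted p = 0.000898) and was not called with N+C (0.18 ± 0.06, adjusted p = 0.0514), WT, D361E or the C-fragment. Where the probe used lies in Rela, and whether it reads plasmid RNA, was not examined. The level is therefore no measure of how much of each construct the cells made.

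With N+C all 40 members had positive differences from void and 26 were called. The largest called differences were those of Kif23, Spc24 and Ube2c. Kif23, the midzone kinesin of the centralspindlin complex, was at -0.04, -0.34 and -0.37 with void and ranged from 0.47 to 0.75 on the 5 N+C arrays around a median of 0.56 (0.83 ± 0.14, adjusted p = 0.000481). The lowest N+C array was above every other array outside that group. Kif20a, a kinesin of cytokinesis, was at 2.57, 2.58 and 2.48 with void and at 3.05 to 3.29 with N+C, with a median of 3.21 (0.62 ± 0.06, adjusted p = 1.3e-06). Tpx2 was at 2.21, 2.39 and 2.45 with void and at 2.94 to 3.09 with N+C, with a median of 3.01 (0.67 ± 0.06, adjusted p = 5.29e-07). For these 3 genes the N+C arrays lay above all void arrays without overlap.

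Spc24 and Ube2c also had differences above 0.7 with N+C. Spc24, a subunit of the Ndc80 complex, was at 0.87, 0.85 and 0.83 with void and at 1.28 to 1.77 with N+C, with a median of 1.63 (0.75 ± 0.08, adjusted p = 9.92e-06). All 5 N+C arrays were above every other array for Spc24. Ube2c was at 4.33 to 4.50 with N+C, with a median of 4.47 (0.73 ± 0.08, adjusted p = 8.99e-06). Aurka followed with 0.68 ± 0.08 (adjusted p = 8.46e-06), then Kif11 with 0.56 ± 0.08 (adjusted p = 7.42e-05).

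By role, 6 of 7 kinetochore genes, 5 of 6 kinesins, 4 of 4 checkpoint genes and 3 of 4 spindle-associated proteins rose with N+C. So did 2 of 3 kinases, 2 of 5 entry genes, and 1 each of the 4 passenger complex genes, the 3 anaphase genes, the 2 cytokinesis regulators and the 2 chromosome structure genes. Ttk, called only here, was at -2.90 to -2.38 with N+C, with a median of -2.56 (0.40 ± 0.11, adjusted p = 0.0145). Its call held in 14 of 18 refits, and those that lost it included the fits without void array 2 or 3. Ccnb2 was at 4.00, 4.00 and 4.10 with void and at 4.36 to 4.65 with N+C (0.47 ± 0.07, adjusted p = 0.000179), clear of every array of the other groups. Ccnb1, in contrast, was at 4.27 to 4.38 with a median of 4.28 and was not called (0.06 ± 0.04, adjusted p = 0.343). All 3 Ccnb1 probes gave small N+C differences, from 0.02 to 0.08.

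The N+C arrays were not alike. Over all genes, the deviations of arrays 4 and 5 from the group mean correlated at 0.46 with each other and at -0.68 to -0.46 with those of arrays 1 to 3; such deviations of one group sum to 0, and arrays 1 and 4 shared a slide. In 24 of the 40 members both arrays 4 and 5 were above arrays 1 to 3, in 5 both were below and in 11 they were interleaved. The same was not counted over all genes, so these counts do not set the members apart. Racgap1 was at 4.58 and 4.69 on arrays 4 and 5 and at 3.74 to 3.99 on the others. Cdca8 was at 4.98 and 5.04 there against 4.48 to 4.52, whereas Kif20a was at 3.05 and 3.06 against 3.21 to 3.29. With arrays 1 to 3 alone 22 members were called against void, and with arrays 4 and 5 alone 33. The shares of all genes called with each set are not given here. Cenpe had a difference of 0.20 (adjusted p = 0.0631) in the first set and of 0.55 (adjusted p = 0.000532) in the second. The cause of the split was not tested. Without void array 1 the calls of Mki67, Cenpa, Cenpe and Ect2 against void were lost. Without void array 2 those of Mki67 and Cenpa were lost, and Cenpa also lost its call without N+C array 3, 4 or 5. Of 19 refits the Cenpa call held in 9. In a fit of only the void and N+C arrays 16 members were called.

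Full-length p65, its D361E form and the C-fragment were each accompanied by small rises of a few members. With WT the 7 were Spc24 (0.33), Aurka (0.32), Kif11 (0.32), Kif4 (0.27), Kif22 (0.26), Ccnb1 (0.25) and Tpx2 (0.23). With D361E the 6 were Kif11 (0.39), Nuf2 (0.37), Kif4 (0.30), Bub1 (0.27), Mad2l1 (0.24) and Ccnb1 (0.24). With the C-fragment the 5 were Aurka (0.39), Kif11 (0.33), Ccnb1 (0.32), Kif4 (0.27) and Mad2l1 (0.21). The 3 probes of Mad2l1 disagreed in sign with the C-fragment, from -0.18 to 0.21. Its call there held in 8 of 15 refits. Ccnb1 was at 4.52, 4.44 and 4.51 with WT, at 4.45, 4.53 and 4.46 with D361E and at 4.52, 4.59 and 4.56 with the C-fragment. Each of these 9 arrays was above all 3 void arrays and below all 3 N-fragment arrays. Kif11 was at 0.24, 0.26 and 0.39 with WT, at 0.28, 0.48 and 0.35 with D361E and at 0.29, 0.32 and 0.32 with the C-fragment, again all above void. Groups did not overlap with void for 14 members with WT (33.5% of all genes), 16 with D361E (31%) and 21 with the C-fragment (38.8%; 20 higher, and Spc25 lower), shares of 40 that lie nearer the background than those of the N-fragment and N+C. The WT count was 4 without void array 1 or 3 and 2 without void array 2, WT array 2 or WT array 3. The C-fragment count was 3 without void array 1 or 2 or C-fragment array 1 or 3, and 2 without C-fragment array 2. In a fit of only the groups compared, the count was 1 with WT and 0 with D361E, and without a filter on dim probes it was 2 with WT and 2 with the C-fragment. Other settings raised the counts, and the shares of all genes called in them are not given here. With the slide as a block 13 were called with D361E and 11 with the C-fragment. Without scaling between arrays, where the median over all genes is 0.37 with WT, 0.11 with D361E and 0.21 with the C-fragment, 35, 17 and 18 were called.

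D361E cannot be cut at residue 361, and against WT limma called 0 members with it, where 2.38% of all genes were called higher and 1.77% lower. At an unadjusted p under 0.05 there were 3, all lower with D361E: Cenpf (-0.21), Aurka (-0.20) and Kif22 (-0.17). The 95% interval of the difference lay within 0.5 log2 units of 0 for 35 of the 40 genes. This bounds their differences but does not show that both forms act alike. The bound of 0.5 is wider than every called difference of WT or D361E from void, of which the largest was 0.39. Across the other fits the count was 0 or 1. The C-fragment against WT likewise gave 0 calls with limma (2.07% of all genes were called higher and 2.33% lower) and 2 at an unadjusted p under 0.05, Ndc80 (-0.22) and Kif22 (-0.17), with 36 of 40 intervals inside the same bounds. Those 2 genes were called lower with the slide as a block, and the count was 0 to 2 across fits. For neither comparison was the share of all genes at an unadjusted p under 0.05 counted. The genes named at that threshold are therefore not set apart from other genes.

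Set against WT, 23 members rose with the N-fragment and 0 fell, where 13.7% of all genes rose and 13.5% fell. The largest were Cenpe (0.65 ± 0.11, adjusted p = 0.000393), Foxm1 (0.61 ± 0.14, adjusted p = 0.00462) and Ube2c (0.59 ± 0.09, adjusted p = 0.00013). Foxm1 was at 2.87, 3.23 and 3.37 with WT, all below the N-fragment arrays. Cdc20 rose in this comparison (0.49 ± 0.14, adjusted p = 0.0152), from 4.27, 4.29 and 4.33 with WT to 4.95, 4.73 and 4.68. Without WT array 1, the lowest WT array for Kif23, Foxm1 and Mki67, 12 members were called. The count was 15 with normexp and quantile normalization and 8 without scaling between arrays. The call of Cdc20 was lost without N-fragment array 1, and that of Foxm1 in a fit of only these groups. Cenpe, Ect2, Prc1, Top2a and Ube2c were called in every alternative.

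Against the C-fragment, 19 members rose with the N-fragment and 0 fell, where 9.91% of all genes rose and 10.1% fell. This comparison uses no void or WT array. Cenpe (0.56), Ube2c (0.56), Foxm1 (0.55), Cenpf (0.48), Prc1 (0.46) and Top2a (0.46) had the largest differences. Spc25, a subunit of the Ndc80 complex, was at 5.30, 5.22 and 5.25 with the C-fragment, below all 3 void arrays at 5.35 to 5.44, and at 5.72, 5.62 and 5.65 with the N-fragment (0.41 ± 0.06, adjusted p = 0.000107). Cenpa was at 2.78, 2.70 and 2.69 with the C-fragment, which overlapped void at 2.70 to 2.82, and at 3.05, 3.09 and 3.08 with the N-fragment (0.35 ± 0.06, adjusted p = 0.000305). Of the 19 calls 10 held in every alternative. Foxm1 and Top2a lost theirs without N-fragment array 1, and Top2a also without C-fragment array 3.

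N+C against WT gave 16 members that rose, where 13.5% of all genes rose, and 1 that fell, Ccnb1, where 9.66% of all genes fell. Kif23 (0.86 ± 0.14, adjusted p = 0.000367), Ube2c (0.60), Kif20a (0.58) and Tpx2 (0.44) held in every alternative. Ccnb1 fell by 0.19 ± 0.04 (adjusted p = 0.00507), with every N+C array below every WT array. Against 17 calls in all, the count was 9 in a fit of only these groups, where Ccnb1 was not called, and 5 without scaling between arrays. With N+C arrays 1 to 3 alone 16 members were called, and with arrays 4 and 5 alone 30, again without the shares of all genes.

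A further comparison asked whether N+C differed from the sum of both single fragments, taking the log2 difference of N+C from void and subtracting those of both single fragments from void. The median of the members was -0.16, beside 0.04 over all genes, and 28 of the 40 lay below the sum. There were 5 members below the sum and called (8.7% of all genes): Ccnb1 (-0.82 ± 0.07, adjusted p = 3.54e-07), Top2a (-0.82 ± 0.16, adjusted p = 0.00198), Cenpe (-0.64 ± 0.15, adjusted p = 0.0063), Kif4 (-0.39 ± 0.11, adjusted p = 0.0147) and Mad2l1 (-0.35 ± 0.07, adjusted p = 0.00188). Ccnb2 was above it (0.36 ± 0.11, adjusted p = 0.0224), where 14.2% of all genes were. Top2a shows the pattern in its levels: it was at 2.88, 2.77 and 2.73 with the C-fragment, at 3.17 to 3.37 with the N-fragment, and at 2.46 to 2.97 with N+C, below every N-fragment array. Cenpe was at 3.89, 3.86 and 3.82 with the C-fragment and at 3.74 to 4.29 with N+C, also below every N-fragment array. For Ccnb1 the sum of both single differences would be 0.88 and N+C gave 0.06. In both directions together 15% of the members were called, so calls were no more frequent among them than among all genes. Some lists of related genes, described below, also had medians below the sum. These were -0.22 for 33 DNA replication genes (12 called lower) and -0.28 for 20 other spindle, centrosome and cytokinesis genes (7 called lower). For 15 genes of the anaphase-promoting complex and its regulators the median was 0.03.

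**Figure D4:**
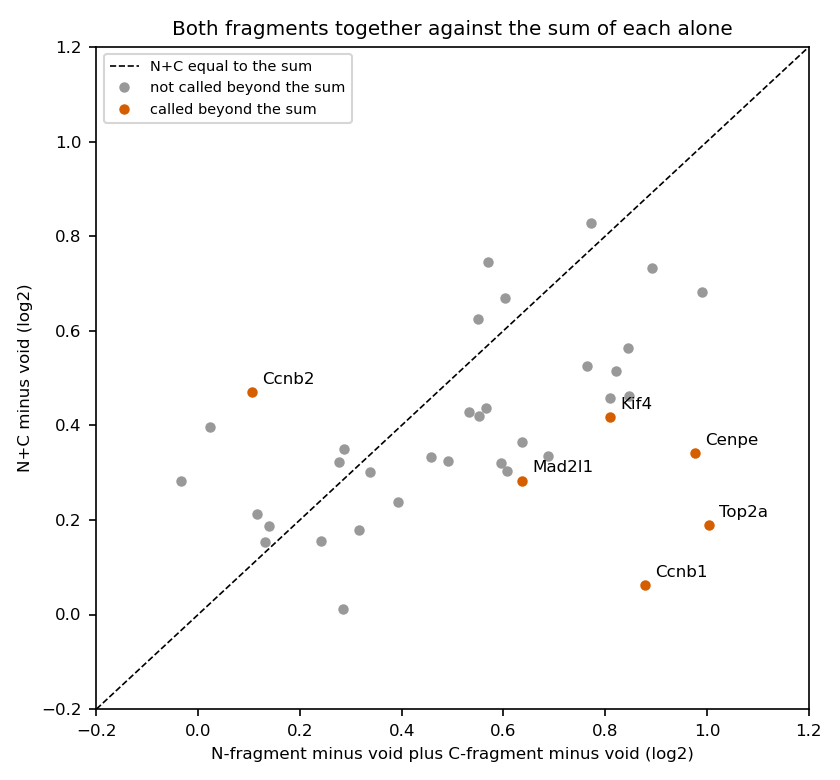
For each of 38 genes, the difference of N+C from void on the vertical axis against the sum of the N-fragment and C-fragment differences from void on the horizontal axis, both in log2 units, with the dashed line at equality; Cdk1 and Aurkb are left out. Ccnb1, Top2a and Cenpe lie far below the line and Ccnb2 above it.

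The calls beyond the sum depended on which arrays entered. Ccnb1, Top2a and Cenpe were called in every alternative. The call of Ccnb2 held in 18 of 25 refits (highest adjusted p = 0.967 by limma). The refits that lost it included those without void array 3, C-fragment array 3 or N-fragment array 2 or 3. Mad2l1 turned to 0.036 (adjusted p = 0.776) when its 3 probes were averaged. The count was 11 with normexp and quantile normalization and 21 without scaling between arrays. Without N+C array 5 there were 10 called members, 16 with N+C arrays 1 to 3 alone and 8 with arrays 4 and 5 alone. This comparison uses the same void, fragment and N+C arrays as those above.

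For Cdk1, the kinase at the centre of mitotic entry, and Aurkb, the kinase of the passenger complex, the signal of the probe used followed the slide. The 20 arrays lay on 5 slides of 4, with every group spread over at least 3 slides. Cdk1 was at 2.99 to 3.28 on slide 1, 0.94 to 1.46 on slide 2, 2.92 to 3.27 on slide 3, 2.71 to 3.21 on slide 4 and 2.14 to 2.63 on slide 5, whichever constructs the slide held. Aurkb was above background on all 4 arrays of slides 1 and 3, on 3 of slide 4 and on none of slides 2 and 5. After group means were removed, slide means of Cdk1 spanned 1.61 log2 units and those of Aurkb 2.83. For the next member, Racgap1, the span was 0.55, and for Ccnb1 0.04. Without slide in the fit the errors were 0.61 for Cdk1 and 1.13 for Aurkb with the N-fragment, and neither was called in any comparison.

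With slide as a block Cdk1 was higher with the N-fragment (0.40 ± 0.09, adjusted p = 0.00617) and with N+C (0.32 ± 0.08, adjusted p = 0.00764) than with void. On slide 2, which held 1 array each of these groups and of D361E, Cdk1 was at 0.98 with void, 0.94 with D361E, 1.35 with the N-fragment and 1.46 with N+C. Aurkb was not called with the block (0.53 ± 0.32, adjusted p = 0.226, for the N-fragment). Of the 3 Cdk1 probes a second, dim on slides 2 and 5, followed the slides too. The third, above background on all 20 arrays, was not lower on slide 2: it was at -2.67 to -2.29 there, against -3.09 to -2.75 on slide 1, -3.18 to -2.71 on slide 3 and -3.06 to -2.68 on slide 4. Its differences from void were 0.31 with the N-fragment and 0.40 with N+C, and the arrays of both groups overlapped void. The cause of the disagreement between probes was not tested.

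**Figure D5:**
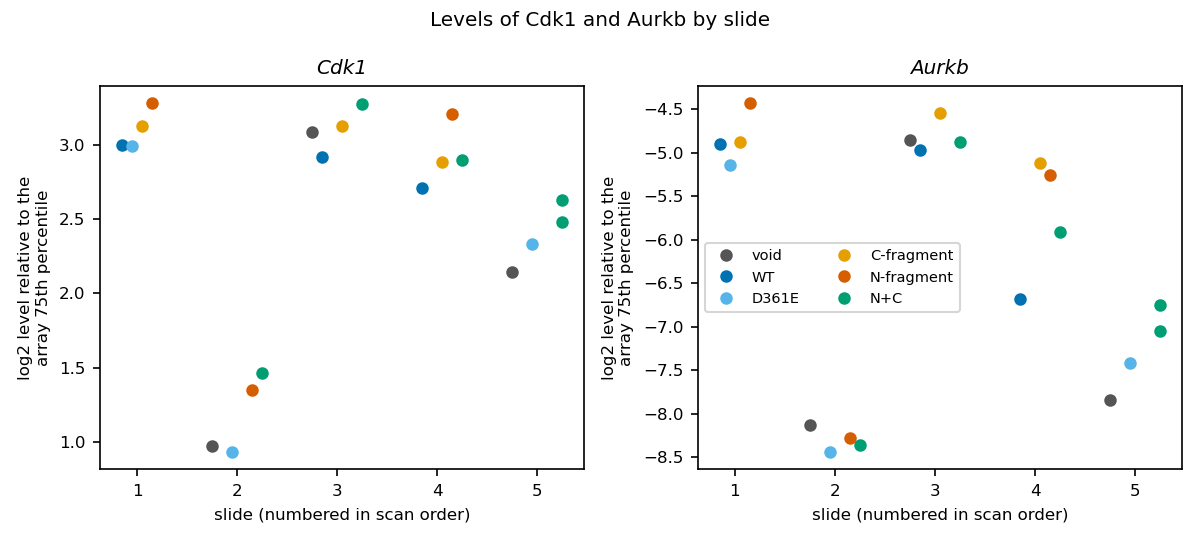
Levels of Cdk1 (left) and Aurkb (right) on the 20 arrays, as log2 relative to the array's 75th percentile, against the slide on which each array lay, one point per array coloured by group. Cdk1 is at 0.94 to 1.46 on all 4 arrays of slide 2 and at 2.71 or more on slides 1, 3 and 4, and Aurkb is also low on slides 2 and 5.

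The block also changed calls of other members. With it, 32 members rose with the N-fragment and 35 with N+C against void, 28 and 26 of them also called without it. How many of all genes were called with the block is not given here, so the block counts stand without a background share. Spc24 lost its call with the N-fragment and with WT. The block moved the D361E count from 6 to 13, the C-fragment count from 5 to 11 and the count beyond the sum from 6 to 12 (1 higher, 11 lower). Within single slides, the median of the members against void was 0.36 for the N-fragment (slide 2), 0.42, 0.29 and 0.39 for N+C (slides 2, 3 and 5), 0.16 and 0.19 for D361E (slides 2 and 5), 0.20 for the C-fragment (slide 3) and 0.17 for WT (slide 3). Against WT it was 0.33 and 0.21 for the N-fragment (slides 1 and 4) and 0.13 and 0.13 for N+C (slides 3 and 4). These N+C values came from N+C arrays 2 and 3, where the medians over all genes were 0.06 and 0.03. The N+C median of the members against WT over all slides was 0.25. Against the C-fragment the N-fragment gave 0.27 and 0.28 (slides 1 and 4).

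Across the 20 arrays, the level of a member correlated with the mean of the other 39 with a median r of 0.74 (from -0.13 for Aurkb to 0.92). After group means were removed the median was 0.29. The points share arrays and their scaling, and these values are descriptions.

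Genes around the same machinery, from lists of related genes, moved with the same constructs to differing extents. The counts against void stand beside shares over all genes of 13.1% higher and 17.8% lower with the N-fragment. With N+C those shares were 11.7% and 12.7%. Of 20 other spindle, centrosome and cytokinesis genes 15 rose with the N-fragment and 12 with N+C, and 0 fell. Anln, the anillin scaffold of the cleavage furrow, rose by 0.98 ± 0.06 (adjusted p = 1.02e-08) with N+C, the largest rise of that list. Of 32 other centromere and kinetochore genes 13 rose with the N-fragment and 0 fell, and with N+C 11 rose and 1 fell, Cenph (-0.26 ± 0.07, adjusted p = 0.0104). Of 14 regulators of mitotic entry and exit 9 rose and 1 fell with the N-fragment. Bora, an activator of Aurora A, rose by 0.91 ± 0.12 (adjusted p = 2.96e-05) and Melk by 0.69 ± 0.06 (adjusted p = 1.77e-07), while Arpp19, an inhibitor of the phosphatase that opposes Cdk1, fell by 0.46 ± 0.10 (adjusted p = 0.00284).

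Of 16 condensin and cohesin genes 7 rose with the N-fragment and 1 fell, and 5 rose with N+C. Ncapd3, a condensin II subunit, rose by 2.20 ± 0.05 with the N-fragment (adjusted p = 2.08e-13) and by 0.78 ± 0.05 with N+C (adjusted p = 1.79e-08). Pttg1, the securin that restrains separase, fell by 0.39 ± 0.08 with the N-fragment (adjusted p = 0.00136). Of 15 genes of the anaphase-promoting complex and its regulators 2 were called with the N-fragment, both higher: Cdc16, a subunit, and Fbxo5, an inhibitor of the complex. That share (13.3%) is near the 13.1% of all genes. With N+C 3 were higher, Anapc1, Anapc11 and Fbxo5. Of the 6 MuvB and MYB factors 3 rose with the N-fragment, among them Mybl2, the B-Myb partner of MuvB (0.61 ± 0.17, adjusted p = 0.0107).

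Among 8 measured cyclin-dependent kinase inhibitors and pocket proteins, Cdkn1a, which encodes p21, fell with all 5 constructs. Against void it fell by 2.17 (D361E), 1.49 (WT), 1.35 (C-fragment), 0.99 (N-fragment) and 0.99 (N+C). Others of the list rose. Cdkn1b rose by 0.54 with WT, 0.44 with D361E and 0.27 with the C-fragment. Cdkn2d rose by 0.37 with the N-fragment and 0.58 with N+C. Of the 8 genes, 2 rose and 1 fell with each of WT, D361E and the C-fragment. With the N-fragment 1 rose and 2 fell, and with N+C 3 rose and 2 fell. Of 33 DNA replication genes 13 rose and 2 fell with the N-fragment, and 13 rose and 1 fell with N+C. Between the N-fragment and the C-fragment the replication genes had a median difference of 0.03, beside 0.27 for the mitosis and spindle genes. Of the 33, 5 were higher and 2 lower, where 9.91% of all genes were higher and 10.1% lower. E2f1, a transcription factor for replication genes, rose with every construct but WT, by 0.82 with N+C, 0.74 with the N-fragment, 0.45 with D361E and 0.44 with the C-fragment.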

How the data were processed

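The 20 samples were 1-colour Agilent arrays. Per the file headers, Agilent Feature Extraction wrote the deposited scanner files (version 10.7.3.1 per the submitters' processing notes), whose values are spot intensities. The authors' series table equals their background-subtracted processed signal on all 20 arrays and is therefore unscaled. The build behind the array's probes is not given in the sources used here. Probes were named by accession through a RefSeq gene table (28663 of 39429, 72.7%). From the log2 of the deposited intensities each array's 75th percentile, which differed up to 1.448-fold, was subtracted. Between 98 and 285 outlier spots per array were left out, and 0 were saturated. Probes above background on at least 3 arrays were kept (23453), with the brightest probe per gene, giving 18914 genes, of which 13841 had a symbol. One limma 3.58.1 fit (R 4.3.3; residual df 14, prior df 1.44) over all groups gave 11 comparisons with Benjamini-Hochberg adjustment within each. The number of arrays limits the precision. On simulated data the N-fragment comparison with void recovered 40% of genes changed by 0.5 and 65% of those changed by 1 log2 unit, with 4.55% of calls false, over 18846 genes.

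All 40 members are named, and from the other lists up to 2 called genes per direction and comparison against void with groups that do not overlap, with Rela. The members and lists were chosen with earlier results of these data known. Alternatives covered scaling, background correction, filter, probe choice, slide, the fit and each array left out. The normexp alternative used median spot signals, since mean signals were not in the files, and sets of N+C arrays and the mean without Cdk1 and Aurkb were added after seeing the data.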

Additional observations from a re-analysis of the deposited data

Results flagged for a closer look

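On 1 N+C array each, 2 of the 40 members lay far from the other 4 arrays of the group. Ccnb1 was at 4.38 on N+C array 2 and at 4.27 to 4.29 on the others, and Bub1 was at 1.66 on the same array and at 1.59 to 1.61 on the others. Chance flags about 1 in 20 groups, and here 2 of 40 were.

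For 6 members the N+C difference departed from the sum of both single fragments by limma's test of that difference. Ccnb1 (-0.82, adjusted p = 3.54e-07), Top2a (-0.82, adjusted p = 0.00198), Cenpe (-0.64, adjusted p = 0.0063), Kif4 (-0.39, adjusted p = 0.0147) and Mad2l1 (-0.35, adjusted p = 0.00188) were below the sum. Ccnb2 was above it (0.36, adjusted p = 0.0224). Over all genes tested 8.7% were called below the sum and 14.2% above it.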

How the results depend on the processing

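No paired analysis was possible because no label gives groups shared replicate numbers, so arrays were matched by slide alone. In every alternative, all members called against void were higher. The shares of all genes called in each alternative are not given beside the counts below. The counts of members called, in the order WT, D361E, C-fragment, N-fragment and N+C against void, were 7, 6, 5, 29 and 26. Without scaling between arrays, which shifts the median of all genes to 0.37, 0.11, 0.21, 0.28 and 0.19, they were 35 for WT, 17 for D361E and 18 for the C-fragment. Unscaled values also gave 1 for D361E against WT, 8 for the N-fragment against WT, 1 for the C-fragment against WT, 5 for N+C against WT and 21 beyond the sum. Quantile normalization gave 1 call for D361E and 1 for the C-fragment against WT, as did a trended robust fit. Normexp with quantile normalization gave 15 for the N-fragment against WT and 11 beyond the sum. No filter gave 2 for WT and 2 for the C-fragment against void. The slide block gave 13 for D361E and 11 for the C-fragment against void, 2 for the C-fragment against WT and 12 beyond the sum. Only the groups compared gave 1 for WT, 0 for D361E and 16 for N+C against void and 9 for N+C against WT. N+C arrays 1 to 3 alone gave 16 beyond the sum, and arrays 4 and 5 alone 30 for N+C against WT. With each array left out, the counts ranged from 2 to 5 for WT, 4 to 7 for D361E, 2 to 4 for the C-fragment, 25 to 27 for the N-fragment and 22 to 29 for N+C against void, from 12 to 23 for the N-fragment, 12 to 20 for N+C and 0 to 0 for the others against WT, from 14 to 17 between the fragments and from 5 to 10 beyond the sum. Mad2l1 beyond the sum turned to 0.036 with the mean of its probes. Of 2301 refits of the 138 called member differences, 2002 kept their call, 298 lost it and 1 changed sign; except where fewer arrays or more genes were tested, the cause was not tested. Dim signal limits Aurkb, above background on 11 arrays.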
